A study of Homo sapiens with 12 samples.

Results

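The kinetochore and centromere genes were followed in HN6 and HN30 cells, 2 established lines of oral squamous cell carcinoma (OSCC), after silencing of FAT1. They were taken from the counts table by symbol: 35 genes were listed, and all 35 were found among its 19225 entries (19223 distinct symbols), detected in each of the 12 libraries and kept by the filter on low counts in every comparison. Cells of each line received siFAT1-1, siFAT1-2 or, as the control (NC), a scrambled siRNA, and poly(A) RNA was sequenced 24 h later in 2 repeats made at separate times. This gave 6 conditions, with 4 NC and 8 knockdown (KD) libraries in all and 4 KD libraries per line. All groups share the transfection itself, the NC cells included, no untransfected cells entered a comparison, and each line stands for a single tumor. The sample labels carry the names sh1 and sh2 for the KD groups, whereas their descriptions speak of siRNA.

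The kinetochore is the protein assembly through which a mitotic chromosome holds on to spindle microtubules. It is built on nucleosomes that contain the histone variant CENPA, which HJURP and the MIS18 proteins deposit at the centromere. The constitutive centromere-associated network (CCAN) sits on these nucleosomes throughout the cell cycle, and in mitosis the MIS12 and NDC80 complexes join it to the microtubule, where the SKA complex strengthens the grip. An outer corona with CENPE, CENPF and the ROD-ZW10-ZWILCH (RZZ) complex assembles before attachment and serves the spindle checkpoint. Transcripts of many of these genes peak in G2 and mitosis, and the CHR element and the CCAAT box are known promoter elements of such genes, as E2F sites are of G1/S genes.

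RefSeq promoter sequences (GRCh38.p14, from upstream of each start site to just past it) were matched by symbol for 30 of the 35 genes. MIS18A, CENPM, CENPL, KNTC1 and CENPH had no entry. Both strands were searched for the CHR word TTTGAA, the CCAAT box CCAAT and the E2F words, which were TTCCCGC with its variant TTCGCGC, then TTGCCGC with its variant TTGGCGC; the last of them can overlap a CCAAT box on the other strand. The CHR word was held by 14 of the 30 promoters (46.7%), against 15.2% of all 35116 promoters of this length. The 30 were taken as a single promoter per symbol, while the 35116 are all entries and were not reduced in that way. A CCAAT box was held by 18 of 30 (60%, against 34.6%), an E2F word by 13 of 30 (43.3%, against 13%), and both the CHR word and a CCAAT box by 8 of 30 (26.7%, against 5.9%). These are matches of letters, and no binding was measured. The 3 stretches below lie upstream of SPC24 and HJURP, which were lowest after knockdown, and of ZW10, which was called higher. They are printed 5′ to 3′ on the strand of the gene, all 3 of which are on the minus strand, and they end where the first annotated exon begins. Capitals mark the searched words.
SPC24 (chr19:11155808-11155917): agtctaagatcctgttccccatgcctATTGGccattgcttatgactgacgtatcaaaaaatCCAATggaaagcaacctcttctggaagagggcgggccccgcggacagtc
HJURP (chr2:233854567-233854676): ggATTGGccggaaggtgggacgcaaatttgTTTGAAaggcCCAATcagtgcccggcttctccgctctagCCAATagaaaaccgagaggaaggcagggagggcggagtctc
ZW10 (chr11:113773736-113773845): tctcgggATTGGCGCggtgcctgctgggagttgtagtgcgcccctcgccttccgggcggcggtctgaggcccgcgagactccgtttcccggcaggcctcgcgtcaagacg
The SPC24 stretch held 2 CCAAT boxes and no CHR word. The HJURP stretch held the CHR word and 3 CCAAT boxes, and the ZW10 stretch a CCAAT box that overlaps an E2F word. ZW10 also had the CHR word, 224 bases upstream of its start site.

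Total counts per library ran from 26430049 to 47639010. FAT1 was the check of the knockdown. Its level in CPM (counts scaled to effective library size) was 56.8 and 66.7 in HN6 NC, 7.61 and 13.5 in HN6 siFAT1-1 and 13.2 and 21.4 in HN6 siFAT1-2. HN30 began lower, with 13.6 and 14.7 for NC, 4.86 and 6.26 for siFAT1-1 and 10.8 and 7.74 for siFAT1-2. No KD value reached an NC value of the same line (log2 fold change -1.59 ± 0.31 SE, adjusted p = 0.0404, edgeR). Of 8 squamous epithelial markers, 7 were above 1 CPM in every library, and their changes are given with the siRNA comparisons. Summed CPM of 5 fibroblast markers was 73.7 to 74.2 in HN6 NC, 69.2 to 164 in HN6 KD, 12.5 to 21.9 in HN30 NC and 31.7 to 50.01 in HN30 KD, and COL1A1 among them was called higher in HN30 by the thresholds given below. The 5 leukocyte markers summed to at most 124 CPM, with 1 of them at 0 in every library, and the 3 endothelial markers to at most 7.87 CPM. The part of these markers in the results was not tested.

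HN6 NC repeat 2 stood apart in base composition, and this touches the results in HN6. Among genes in the lowest quintile of transcript GC content its median was -0.88 on the log2 scale relative to the mean of the HN6 libraries, against 0.13 in HN6 NC repeat 1, -0.16 and 0.00 with siFAT1-1 and 0.46 and 0.55 with siFAT1-2. In HN30 the same medians lay between -0.13 and 0.11. Of the 35 kinetochore and centromere genes, 15 fall in that lowest quintile, and their transcripts run from 32.8% GC (CENPK) to 61.4% (CENPM). The counts in HN6 are given also without this library and with a correction for GC content, as are some single genes; the other HN6 values, percentages of NC included, are uncorrected.

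Across both lines the kinetochore and centromere genes were more often below NC than above it after FAT1 knockdown, and few passed the thresholds. The log2 fold change of KD against NC was negative for 29 of 35, with a median of -0.43, while it was negative for 48% of all 13887 genes tested, with a median of 0.02. The thresholds were those of the study, an absolute log2 fold change above 1 together with P under 0.05 before adjustment, and a gene past both is termed called lower or called higher. By them 3 of 35 were called lower, SPC24, HJURP and SPAG5, against a background of 1.04% of all genes. ZW10 was the 1 gene called higher (background 2.03%). At P under 0.05 with a negative fold change of any size there were 9 of 35, SPC24, HJURP, SPAG5, CENPO, DSN1, PMF1, SKA1, MIS18A and CENPW (background 7.75%). None of the 35 had an adjusted p under 0.05 in edgeR (background 0.547%), with 10 at an unadjusted P under 0.05 (background 14.5%); limma-voom gave 0 and the DESeq2 Wald test 2, SPC24 and ZW10. In RNA from whole cultures, fewer cells in G2 and mitosis and less RNA per cell cannot be told apart. Without HN30 NC repeat 2 the number called lower was 1 (SPC24), and without repeat 2 of siFAT1-2 in either HN6 or HN30 it was 5.

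**Figure D1:**
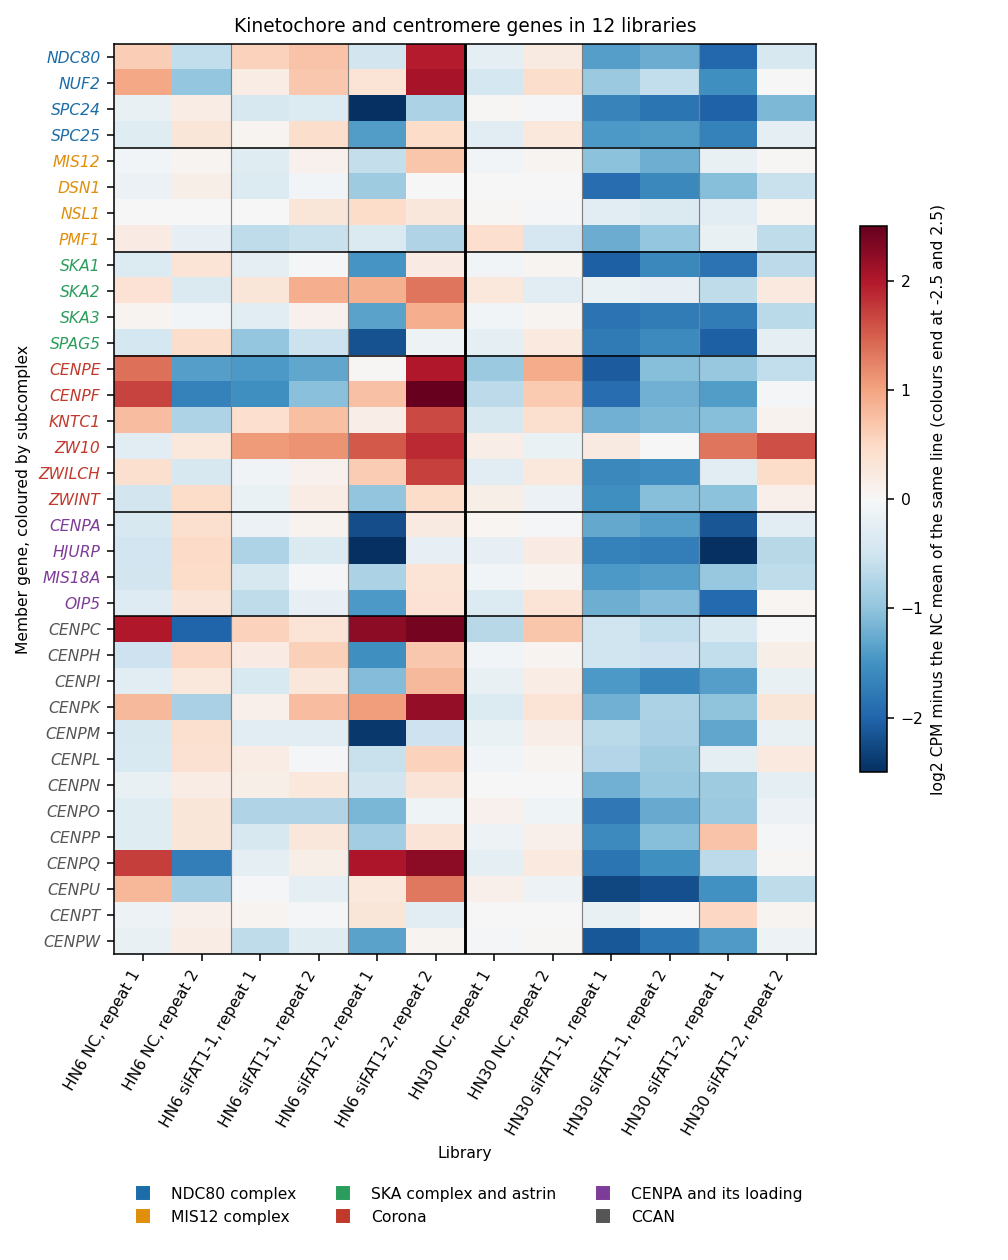
Each row is a gene and each column a library, and the colour gives log2 CPM minus the NC mean of the same cell line, in log2 units, with gene names coloured by subcomplex. The 2 HN30 siFAT1-1 columns are blue in nearly all rows (34 of 35 below the NC mean in each), while the 2 HN6 siFAT1-2 columns differ from each other. The ZW10 row is clearly red in 6 of the 8 KD columns, most strongly with siFAT1-2.

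The lines were then fitted separately. In HN30, 33 of 35 genes had a negative log2 fold change, with a median of -0.84 (all genes tested: 47.3% negative, median 0.03), and 13 were called lower against a background of 1.91%. In HN6, 14 of 35 were negative with a median of 0.08, none was called lower (background 0.888%), and ZW10 was called higher (background 2.19%). No gene had an adjusted p under 0.05 in edgeR in either line, with 14 of 35 at an unadjusted P under 0.05 in HN30 (background 9.3%) and 2 of 35 in HN6 (background 5.72%); the DESeq2 Wald test gave 2 in HN30 (SKA3 and SPC24) and 1 in HN6 (ZW10), and limma-voom 0 in both. The HN30 count moved with single libraries: it was 7 without either siFAT1-1 repeat, 8 without siFAT1-2 repeat 1 and 23 without siFAT1-2 repeat 2. SPC24, SKA1 and SKA3 were called in each of these fits. Leaving out an NC repeat leaves 1 NC library in HN30, and the median was then -1.04 without NC repeat 1 and -0.57 without NC repeat 2. The direction in HN6 was not settled. Without NC repeat 2, 13 of 35 were negative (median 0.12), but without NC repeat 1 it was 20 (median -0.15), without siFAT1-2 repeat 2 it was 23 (-0.27), under limma-voom 20 (-0.09) and with the GC correction 24 (-0.25). None was called lower in HN6 without any 1 library, and 6 were called higher without NC repeat 1. With the GC correction CENPW was called lower in HN6 and the count in HN30 was 14.

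Tested directly, the difference between the lines was negative (lower in HN30) for 33 of 35, with a median of -0.84. Over all genes tested, the median of log2 CPM minus the NC mean of the same line lay between -0.06 and 0.03 in every KD library. These medians describe single libraries, and the share of all genes that were negative in this contrast is not given here. NDC80 (-1.98 ± 0.85 SE) and SKA2 (-1.04 ± 0.47 SE) passed the thresholds (background 0.915%), with an adjusted p = 1 for both in edgeR, and no gene had an adjusted p under 0.05 in edgeR, DESeq2 or limma-voom. With the repeats as a block neither passed, and the number of genes past the thresholds was 12 without HN30 siFAT1-2 repeat 2, 8 without HN6 NC repeat 1, 6 without HN6 siFAT1-2 repeat 1, 1 without HN6 NC repeat 2 or either HN30 NC repeat, and 0 without HN6 siFAT1-2 repeat 2, HN30 siFAT1-2 repeat 1 or either HN30 siFAT1-1 repeat. NDC80 stood at 28.2 and 12.1 CPM in HN6 NC and at 13.4 and 72.1 in HN6 siFAT1-2, so the HN6 side of this comparison had repeats that differ more than the groups do.

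**Figure D2:**
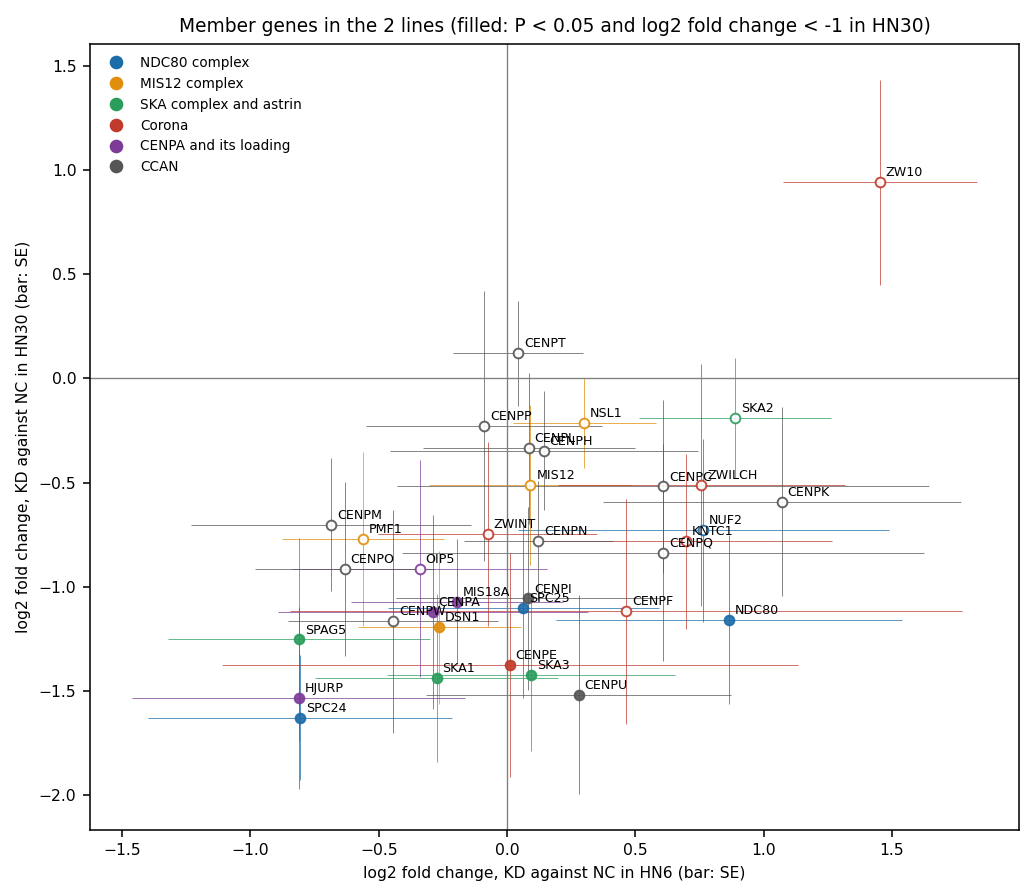
Each point is a gene at its log2 fold change of KD against NC in HN6 (horizontal) and in HN30 (vertical), with SE bars and colours by subcomplex; filled points were called lower in HN30. All points but ZW10 and CENPT lie below 0 on the HN30 axis, and they spread on both sides of 0 on the HN6 axis.

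The NDC80 complex binds the microtubule through NDC80 and NUF2 and is anchored to the inner kinetochore by SPC24 and SPC25. SPC24 (chr19:11131520-11155807, minus strand) stood at 16.3 and 21.1 CPM in HN6 NC, 14.0 and 14.7 under siFAT1-1, and 2.58 and 10.8 under siFAT1-2. In HN30 it stood at 23.5 and 22.5 CPM with NC, 7.18 and 6.48 under siFAT1-1, and 5.62 and 10.6 under siFAT1-2. All 8 KD libraries were below both NC libraries of their line. No other of the 35 genes had this pattern, and 1 of 35 is close to the share of 3.15% among all genes tested. The log2 fold change was -1.24 ± 0.36 SE over both lines (adjusted p = 0.146, edgeR), -0.81 ± 0.59 in HN6 and -1.63 ± 0.30 in HN30, and -1.50 ± 0.42 for siFAT1-2 against NC (adjusted p = 0.0401). SPC24 was lower under all 20 alternatives, by 1.12 to 1.41 on the log2 scale, and passed the thresholds in each. It is one of the genes that the study measured by qRT-PCR, so its choice was not independent of these samples.

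Of the 3 partners of SPC24, NDC80 and SPC25 were called lower in HN30 and none in HN6. NDC80 stood at 30.7 and 42.5 CPM in HN30 NC, 13.8 and 15.3 with siFAT1-1 and 9.23 and 27.5 with siFAT1-2, and SPC25 at 17.6 and 25.3, 7.82 and 7.96, and 6.49 and 17.9. Both were called lower in HN30 (NDC80 -1.16 ± 0.41, SPC25 -1.10 ± 0.43), while NUF2, at -0.73 ± 0.44, was not. In HN6 the log2 fold changes of NDC80, NUF2 and SPC25 were 0.86 ± 0.67, 0.76 ± 0.72 and 0.06 ± 0.53, and with the GC correction 0.44, 0.34 and -0.45, none past the thresholds. The complex thus had 3 of 4 genes called lower in HN30 and 0 of 4 in HN6.

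**Figure D3:**
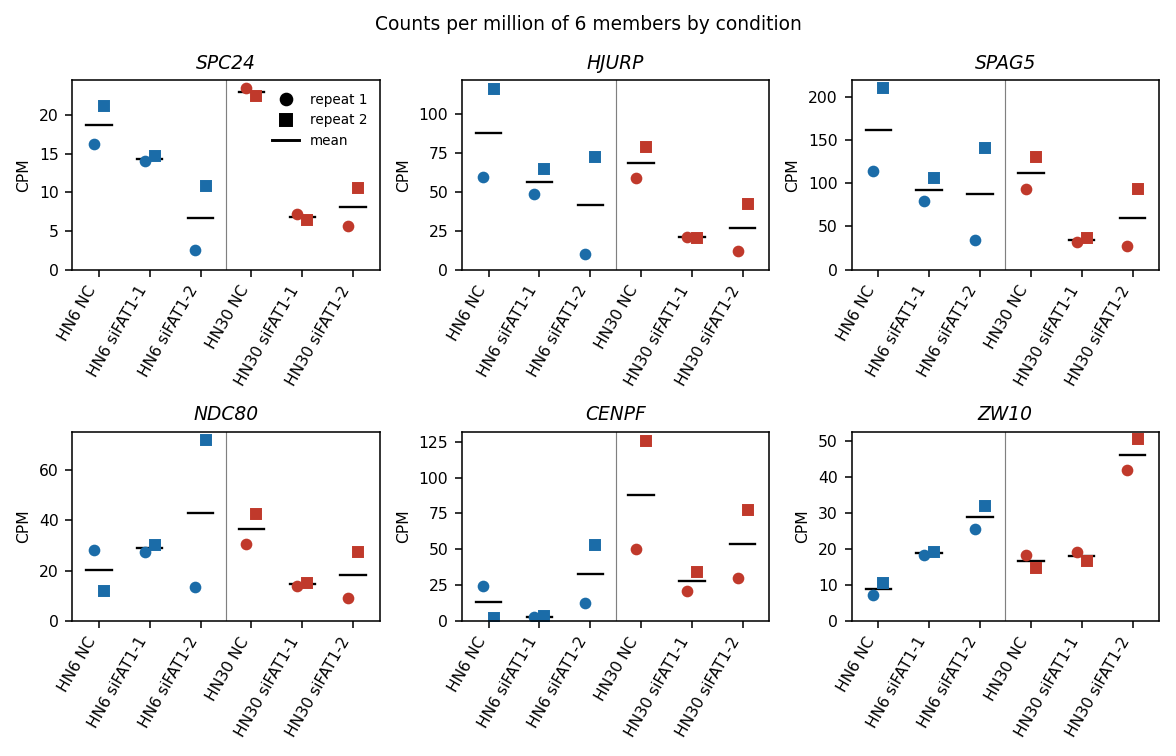
CPM (vertical axis, from 0) of 6 genes in the 6 conditions; circles are repeat 1, squares repeat 2 and lines the mean of both, with HN6 in blue and HN30 in red. SPC24 is below NC in all 8 KD libraries, ZW10 is above NC in 6 of them, and the siFAT1-2 repeats of HJURP, SPAG5, NDC80 and CENPF lie far apart in HN6.

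The MIS12 complex, which links the NDC80 complex to the CCAN, had DSN1 as the 1 gene of 4 called in HN30. DSN1, its subunit that meets CENPC and is regulated by Aurora B, stood at 38.4 and 39.3 CPM in HN30 NC, 10.3 and 12.7 under siFAT1-1, and 18.6 and 26.4 under siFAT1-2. The HN6 values were 40.3 and 50.003 (NC), 35.5 and 43.0 (siFAT1-1) and 24.2 and 44.6 (siFAT1-2) and overlapped with NC. DSN1 was called lower in HN30 (-1.19 ± 0.37, adjusted p = 0.442, edgeR), and over both lines it was at -0.76 ± 0.27 (adjusted p = 0.226). MIS12 and NSL1 had log2 fold changes of -0.23 ± 0.29 and 0.03 ± 0.17 over both lines, and NSL1 stayed between 18.1 and 28.2 CPM in all 12 libraries. PMF1 was at -0.68 ± 0.25 (adjusted p = 0.232), but 23.3% of its exonic sequence is shared with the read-through gene PMF1-BGLAP on the same strand, so its counts are uncertain.

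The SKA complex, which tracks microtubule ends, and astrin (SPAG5), which stabilizes mature attachments, had 3 of 4 genes called lower in HN30, with a median of -1.34. SPAG5 (chr17:28577565-28599025, minus strand) stood at 114 and 210.3 CPM in HN6 NC, 79.3 and 106 with siFAT1-1 and 33.9 and 141 with siFAT1-2. In HN30 the values were 93.3 and 130.3 with NC, 32.2 and 36.4 with siFAT1-1 and 26.8 and 92.8 with siFAT1-2. All 4 KD libraries of HN30 were below both NC libraries, whereas in HN6 the siFAT1-2 repeats lay on both sides of NC repeat 1. Over both lines SPAG5 was at -1.05 ± 0.38 (adjusted p = 0.229, edgeR), and this call is a weak one, since 9 of 20 alternatives took it below the thresholds, with values from -1.32 to -0.90; they include the GC correction and the fits without either siFAT1-1 repeat 1, either siFAT1-2 repeat 1, HN6 NC repeat 2, HN30 NC repeat 2 or HN30 siFAT1-1 repeat 2.

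SKA1 and SKA3 were called lower in HN30. SKA1 stood there at 19.3 and 21.2 CPM with NC, 4.86 and 6.60 with siFAT1-1 and 5.59 and 12.9 with siFAT1-2 (-1.44 ± 0.40). SKA3 stood at 30.9 and 34.0, 8.94 and 9.62, and 9.63 and 20.4 (-1.42 ± 0.37). Every KD library of HN30 was thus well under both NC libraries for these 2 genes. SKA2, the third subunit, ran differently, with 56.5 and 39.6 CPM in HN30 NC, 41.9 and 40.9 with siFAT1-1 and 30.4 and 56.0 with siFAT1-2 (-0.19 ± 0.29). In HN6 it was at 41.3 and 24.8 with NC, 39.6 and 60.2 with siFAT1-1 and 58.9 and 80.8 with siFAT1-2 (0.89 ± 0.38, adjusted p = 0.814, edgeR), where the GC correction left 0.14, and its sign over both lines turned from 0.31 to -0.06 with the GC correction.

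Of CENPA and the genes that load it, 3 of 4 were called lower in HN30. HJURP, the chaperone that carries CENPA to the centromere (chr2:233833416-233854566, minus strand), stood at 59.3 and 116 CPM in HN6 NC, 48.4 and 64.7 with siFAT1-1 and 10.3 and 72.1 with siFAT1-2, and in HN30 at 58.8 and 78.5, 20.9 and 20.4, and 11.9 and 42.0. In HN30 all KD values were under both NC values, and in HN6 they were under NC repeat 2 but overlapped with NC repeat 1. Its log2 fold change was -1.20 ± 0.43 over both lines (adjusted p = 0.227, edgeR), -0.81 ± 0.65 in HN6 and -1.53 ± 0.44 in HN30, and it passed the thresholds under 19 of 20 alternatives, the exception being the fit without HN30 NC repeat 2, with a range of -1.43 to -1.03.

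CENPA itself stood at 21.5 and 19.9 CPM in HN30 NC, 8.45 and 7.86 with siFAT1-1 and 4.61 and 17.3 with siFAT1-2 (-1.12 ± 0.47). MIS18A, a subunit of the complex that licenses the centromere for new CENPA, stood at 18.2 and 20.3, 7.03 and 7.4001, and 9.89 and 12.4 (-1.07 ± 0.30). Both were called lower in HN30, with all 4 KD libraries below both NC libraries. OIP5 (MIS18B) was at -0.91 ± 0.52 and was not called; 63.2% of its exonic sequence overlaps OIP5-AS1 and 29.3% overlaps NUSAP1, both on the other strand, so without stated strand counting its reads cannot be told apart from theirs. In HN6 the 4 genes ran from -0.81 (HJURP) to -0.19 (MIS18A) and none was called.

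The corona held ZW10, the 1 gene called higher; 5 others, SKA2, NSL1, CENPT, CENPK and ZWILCH, were above 0 over both lines without passing the thresholds. ZW10 (chr11:113733187-113773735, minus strand), a subunit of the RZZ complex with a further role in Golgi to endoplasmic reticulum transport, stood at 7.31 and 10.5 CPM in HN6 NC, 18.4 and 19.2 with siFAT1-1 and 25.5 and 32.0 with siFAT1-2. In HN30 it stood at 18.4 and 14.8 CPM with NC, 19.3 and 16.7 under siFAT1-1, and 41.8 and 50.5 under siFAT1-2. All 4 KD libraries of HN6 and both siFAT1-2 libraries of HN30 were above both NC libraries of their line, while the siFAT1-1 libraries of HN30 overlapped with NC. It therefore missed the pattern of all 8 KD libraries above NC, which none of the 35 genes showed (background 2.29%).

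Over both lines ZW10 was at 1.18 ± 0.32 (adjusted p = 0.128, edgeR), and it passed the thresholds under all 20 alternatives, with values from 1.03 to 1.30. With siFAT1-2 it rose by 1.57 ± 0.23 (adjusted p = 0.00319), with siFAT1-1 it was at 0.61 ± 0.23 (adjusted p = 0.179), and the siRNAs differed by -0.96 ± 0.23 (siFAT1-1 minus siFAT1-2, adjusted p = 0.0161). Neither ZWILCH, its partner in the RZZ complex, at 0.06 ± 0.46, nor KNTC1 (ROD), the third subunit, at -0.12 ± 0.42, passed the thresholds over both lines.

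CENPE and CENPF had their lowest HN30 means with siFAT1-1. CENPE, the kinesin that brings chromosomes to the spindle equator, stood at 9.51 and 34.6 CPM in HN30 NC, 4.26 and 8.603 with siFAT1-1 and 9.37 and 11.8 with siFAT1-2, and was called lower there (-1.38 ± 0.54). CENPF, a large coiled-coil protein, stood at 50.2 and 126, 21.2 and 34.4, and 30.0 and 77.1 (-1.12 ± 0.54, adjusted p = 0.575, edgeR) and was not called. The 2 NC repeats of both genes were far apart, so the size of the difference depends on which NC repeat is used. In HN6 NC they were further apart still, with 6.39 and 0.902 CPM for CENPE and 24.6 and 2.28 for CENPF, and no direction can be read there. ZWINT, which joins the RZZ complex to the kinetochore, stood at 32.7 and 26.7 CPM in HN30 NC, 10.2 and 14.1 with siFAT1-1 and 14.4 and 32.3 with siFAT1-2 (-0.75 ± 0.44, not called).

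Of the 13 CCAN genes 2 were called lower in HN30, CENPI and CENPU, and none over both lines or in HN6. CENPU, of the CENP-OPQU group that adds microtubule binding and recruits PLK1, stood at 17.5 and 14.6 CPM in HN30 NC, 3.25 and 3.42 with siFAT1-1 and 5.54 and 10.2 with siFAT1-2 (-1.52 ± 0.48), the lowest percentage of NC of any of the 35 genes in a condition (20.8% with siFAT1-1). CENPI, of the CENP-HIKM group, stood at 13.9 and 17.8, 5.76 and 5.03, and 6.00 and 13.8 (-1.06 ± 0.44). For both genes every KD library of HN30 was under both NC libraries, with siFAT1-2 repeat 2 the closest to NC.

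Over both lines the gene with the smallest P in each CCAN group was CENPM (-0.70 ± 0.33, adjusted p = 0.352), CENPN (-0.36 ± 0.23, adjusted p = 0.498), CENPO (-0.79 ± 0.28, adjusted p = 0.217) and CENPW (-0.83 ± 0.36, adjusted p = 0.313, edgeR throughout). CENPO stood at 51.8 and 78.2 CPM in HN6 NC, 37.7 and 37.9 with siFAT1-1 and 28.8 and 59.4 with siFAT1-2, and at 32.5 and 28.2, 8.79 and 12.5, and 15.9 and 27.4 in HN30. Both siFAT1-1 libraries were thus under NC in each line, while siFAT1-2 overlapped with NC in HN6 and came close to it in HN30. A share of 27.0% of its exonic sequence overlaps ADCY3 on the other strand. CENPW, the histone-fold partner of CENPT, stood at 15.7 and 16.1 CPM in HN30 NC, 3.63 and 4.44 with siFAT1-1 and 5.88 and 14.5 with siFAT1-2.

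The other inner centromere genes did not pass the thresholds for KD against NC, over both lines or within either line. CENPT stayed between 35.2 and 83.2 CPM in all libraries, with log2 fold changes of 0.07 ± 0.17 over both lines, 0.04 ± 0.25 in HN6 and 0.12 ± 0.25 in HN30. CENPC, the scaffold that joins CENPA nucleosomes to the MIS12 complex, was at 0.00 ± 0.62 over both lines; its HN6 NC repeats were at 9.12 and 0.507 CPM, which differ widely, and its sign turned in 12 of 20 alternatives. CENPH, CENPL, CENPK, CENPQ and CENPP lay between -0.19 and 0.14 over both lines, and of these CENPP shares 39.9% of its exonic sequence with IPPK on the other strand. In HN30 their log2 fold changes ran from -0.84 (CENPQ) to -0.23 (CENPP). CENPQ and CENPK hold unlike values under these means. CENPQ stood at 53.7% of NC with siFAT1-1 and 244% with siFAT1-2 in HN6, and at 30.5% and 81.6% in HN30. CENPK stood at 121% and 289% in HN6 and at 49.1% and 83.9% in HN30. The HN6 percentages rest on unlike NC repeats, at 15.2 and 1.32 CPM for CENPQ and 9.09 and 2.93 for CENPK. For both genes the siFAT1-1 libraries of HN6 lay between these NC repeats.

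Each siRNA was also set against NC on its own. Over all genes tested, the median per library relative to the NC mean of the line was 0.00 to 0.03 with siFAT1-1. With siFAT1-2 it was -0.06 to 0.00. The share of all genes that were negative against NC is not given here for either siRNA. With siFAT1-1, 33 of 35 genes were negative against NC over both lines, with a median of -0.69, and 9 were called lower (background 2.35%): CENPF, CENPE, HJURP, SPC24, SPAG5, CENPO, CENPU, CENPQ and CENPW. None reached an adjusted p under 0.05 in edgeR (background 3.25%), with 15 of 35 at an unadjusted P under 0.05 (background 19%); limma-voom gave 0 and the DESeq2 Wald test 4 (PMF1, CENPO, CENPE and CENPU). CENPO had an adjusted p under 0.05 in edgeR with no filter on low counts, with the GC correction, with that correction and the block, and without HN6 siFAT1-2 repeat 1 or HN30 siFAT1-2 repeat 2, and CENPU and CENPQ without HN6 NC repeat 2. The number called lower was between 2 (without HN30 siFAT1-1 repeat 1) and 14 (without HN6 NC repeat 2 or HN6 siFAT1-1 repeat 2), with 4 without HN30 siFAT1-1 repeat 2 or HN30 NC repeat 2. With siFAT1-2, 21 of 35 were negative with a median of -0.27, 2 were called lower, SPC24 and HJURP (background 4.75%), and ZW10 higher (background 4.31%).

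With siFAT1-2 the adjusted p was under 0.05 for SPC24 and ZW10, 2 of 35 genes (background 11.8%). ZW10 kept this under 19 of 20 alternatives, the fit without a cell line term being the exception. SPC24 kept it under 9 of 20, and lost it when any library was left out other than HN6 NC repeat 1 or repeat 2 of siFAT1-2 in either line. With the repeats as a block 4 genes were called lower, CENPM and SPAG5 in addition. The number was 6 without siFAT1-2 repeat 2 of either line, 5 without HN6 NC repeat 1, and 1 without HN6 NC repeat 2, HN6 siFAT1-1 repeat 1, HN6 siFAT1-2 repeat 1, HN30 siFAT1-2 repeat 1 or either HN30 NC repeat.

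Compared directly, siFAT1-1 gave lower values than siFAT1-2 for 30 of 35 genes, with a median of -0.42. Over all genes tested, the medians per library were those given above for each siRNA, and the share that were negative in this contrast is not given here. ZWILCH, CENPQ, CENPF, CENPE, CENPU and CENPK, 6 of 35, were called lower with siFAT1-1 (background 5.11%), with 2 without HN6 siFAT1-2 repeat 2 and 3 without HN30 siFAT1-1 repeat 1. ZWILCH (-1.45 ± 0.36, adjusted p = 0.0179), CENPQ (-1.85 ± 0.57, adjusted p = 0.0423) and ZW10 had an adjusted p under 0.05 in edgeR (background 17.4%), and none did when either HN30 siFAT1-1 repeat was left out. With 1 library left out, CENPQ kept this only where that library was an HN6 NC repeat, and ZWILCH also lost it without HN6 siFAT1-2 repeat 2. In HN6, ZWILCH stood at 26.3 and 30.2 CPM with siFAT1-1 against 43.5 and 90.7 with siFAT1-2, and at 9.69 and 10.1 against 24.6 and 40.7 in HN30. CENPQ stood at 3.85 and 5.001 CPM against 18.6 and 21.6 in HN6 and at 3.59 and 4.44 against 8.25 and 13.2 in HN30. For both genes the siFAT1-1 and siFAT1-2 libraries did not overlap in either line. The share of all genes with this separation was not counted, and it comes from the same values as the test.

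Markers of cell type also moved in the siRNA comparisons. Of the 8 squamous epithelial markers, 5 were called lower with siFAT1-2 against NC (KRT5, KRT17, SFN, ITGB4 and KRT6A, 3 of them with an adjusted p under 0.05 in edgeR), and KRT17 was called higher with siFAT1-1. With siFAT1-2 the backgrounds were 4.75% called lower and 11.8% with an adjusted p under 0.05 in edgeR. With siFAT1-1 against siFAT1-2, 6 of 8 were called higher, with KRT14 in addition, and 6 of 8 had an adjusted p under 0.05 in edgeR (background 17.4%). The share of all genes called higher is not given here for siFAT1-1 against NC or against siFAT1-2. In that comparison the fibroblast marker LUM was called lower, PDGFRB higher, and the endothelial markers VWF and CDH5 higher. Their part in the differences between the siRNAs was not tested.

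The 4 knockdown conditions were next compared by percentage of NC. In HN30 with siFAT1-1, the median gene stood at 39.5% of the NC mean, 26 of 35 genes were at 50% or less, and in 32 of 35 both libraries were below both NC libraries (background 30.7%). In HN30 with siFAT1-2 the median was 64.7%, 6 were at 50% or less, and 15 had both libraries below both NC libraries (background 25.5%). The share of all genes at 50% of NC or less was not counted for either siRNA. The same 15 genes had all 4 KD libraries below NC in HN30 (background 11.1%). In HN6 the medians were 94.5% with siFAT1-1 and 102% with siFAT1-2, with 5 and 3 genes below both NC libraries (backgrounds 18.3% and 24.1%) and 7 above both with siFAT1-2 (background 20.8%): NSL1, SKA2, ZW10, ZWILCH, CENPC, CENPK and CENPQ. SPC24 and PMF1 were the 2 genes with all 4 KD libraries of HN6 below NC (background 9.23%). As many, NSL1 and ZW10, had all 4 above NC there (background 6.91%). These 2 were also the ones with both siFAT1-1 libraries of HN6 above both NC libraries (background 17.7%). FAT1 itself was at 39.3% of NC for siFAT1-1 and 65.4% for siFAT1-2 in HN30, and at 17.1% and 28% in HN6.

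The spread of the repeats differed by condition and was widest with siFAT1-2. The median absolute difference between the repeats over the 35 genes was 0.17 on the log2 scale in HN30 siFAT1-1 (all genes: 0.15), 0.34 in HN6 siFAT1-1 (0.23), 0.31 in HN30 NC (0.33), 0.76 in HN6 NC (0.49), 0.88 in HN30 siFAT1-2 (0.35) and 1.42 in HN6 siFAT1-2 (0.46). In both siFAT1-2 conditions 32 of 35 genes were higher in repeat 2, against 49.8% of all genes in HN6 and 50.3% in HN30. In HN6 siFAT1-2 26 of 35 differed by more than 2-fold, against 18.8% of all genes. The 35 genes had medians relative to the NC mean of -0.60 and 0.47 in the HN6 siFAT1-2 repeats and -1.03 and -0.14 in HN30. The 16 mitotic genes outside the kinetochore, given below, moved likewise, with -1.46 and 0.71 in HN6 and -1.97 and -0.26 in HN30. The 35 genes took 0.0732% of the counts in HN6 siFAT1-2 repeat 1 and 0.164% in repeat 2, and 0.0560% and 0.101% in HN30 siFAT1-2. The NC libraries took 0.0934% to 0.122% and the HN30 siFAT1-1 libraries 0.0446% and 0.0488%. HN6 siFAT1-2 repeat 1 was low for HJURP, SPC24, CENPM, CENPA and SPAG5 and repeat 2 high for CENPF, CENPE and NUF2, so their mean hides 2 unlike libraries.

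**Figure D4:**
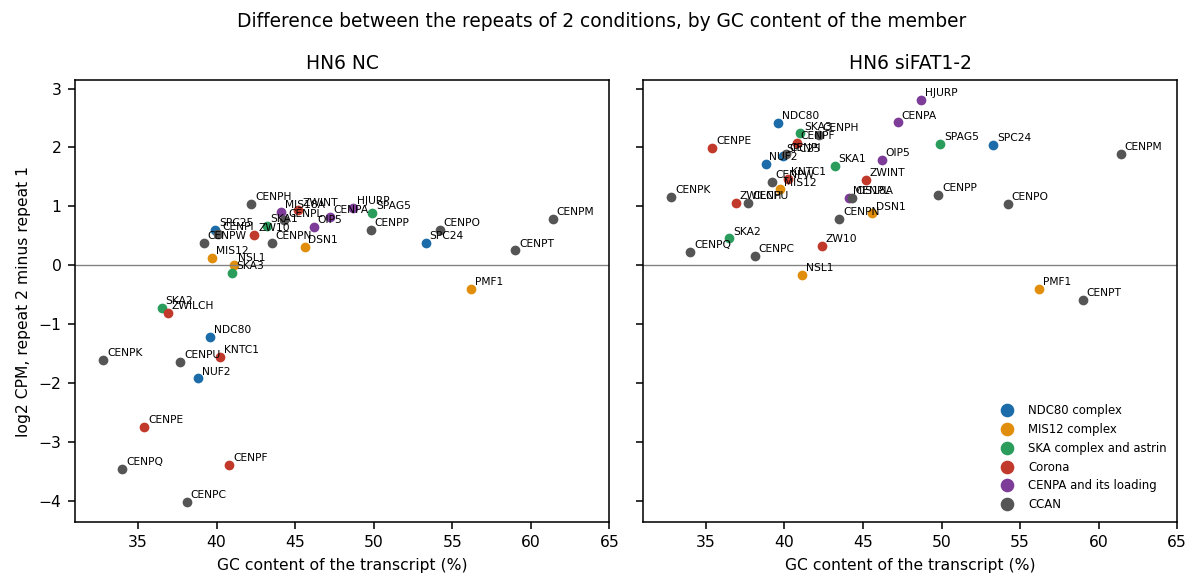
Difference in log2 CPM between repeat 2 and repeat 1 (vertical) against the GC content of the transcript in percent (horizontal) for the 35 genes, in HN6 NC (left) and HN6 siFAT1-2 (right), coloured by subcomplex. In HN6 NC the genes far below 0 have under 41% GC, CENPC, CENPQ, CENPF and CENPE among them, while in HN6 siFAT1-2 most genes are above 0 at any GC content.

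Base composition moved with the HN6 results and much less with those of HN30. Among the 12 genes of lowest GC content (32.8% to 39.9%) the median log2 fold change of KD against NC was 0.61 in HN6 and -0.78 in HN30, and 11 of 12 were above 0 in HN6. Of these, CENPK went from 1.07 to 0.10 and CENPQ from 0.61 to 0.02 in HN6 with the GC correction. Among the 12 genes of highest GC content (45.2% to 61.4%) the medians were -0.45 and -0.91, and 11 of 12 were below 0 in HN6. The 6 genes called lower with siFAT1-1 against siFAT1-2 all have under 41% GC, and with the GC correction 3 of them were called (CENPE, CENPF and CENPQ). ZWILCH, at -0.97 with the correction, missed the fold threshold but kept an adjusted p = 0.039 (edgeR), CENPQ was at -1.18 and ZW10 also kept an adjusted p under 0.05, and CENPT was added. CENPU (-0.65) and CENPK (-0.30) no longer passed. The part of base composition in these differences beyond that correction was not tested.

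The genes were also split by the CHR word, the CCAAT box and the E2F words, as a description. In HN30 the median was -1.11 among the 14 genes whose promoter held the CHR word, 7 of them called lower, and -0.80 among the 16 others, 5 of them called. In HN6 the medians were 0.08 and 0.06. ZW10, the gene that rose, is among the 14, and SPC24 among the 16. The other 2 splits ran the other way in HN30. With a CCAAT box the median was -0.81 (5 of 18 called lower), and without it -1.11 (7 of 12). With an E2F word it was -0.84 (5 of 13), and without it -1.06 (7 of 17).

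Without knockdown the lines differed in some of these genes. ZWINT stood at 91.7 and 176 CPM in HN6 NC and at 32.7 and 26.7 in HN30 NC (log2 fold change of HN30 against HN6 -2.17 ± 0.53, adjusted p = 0.0133, edgeR), and ZW10 at 7.31 and 10.5 against 18.4 and 14.8 (0.90 ± 0.27, adjusted p = 0.0299). Neither pair of groups overlapped, but the share of all genes without overlap between the lines was not counted. CENPN (-1.01 ± 0.31, adjusted p = 0.0324) and CENPT (-0.76 ± 0.26, adjusted p = 0.0467) were the others with an adjusted p under 0.05, 4 of 35 (background 31.3%). ZWINT, CENPO and CENPN were called lower in HN30 (background 14.3%) and CENPF, CENPE, CENPK and SKA3 higher (background 16.2%). The first 3 of these higher genes were the ones with a very low value in HN6 NC repeat 2, and without that library 1 gene was called higher, 2 were called lower, and ZW10 alone had an adjusted p under 0.05; without HN30 NC repeat 2 there was none. The number with an adjusted p under 0.05 was 1 without HN30 NC repeat 1 or any siFAT1-1 library, 8 without either HN6 siFAT1-2 repeat and 11 without HN6 NC repeat 1.

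Per kilobase of exon, ZWINT had the highest level among the 35 genes in HN6 NC (56.2 CPM per kb), followed by SPAG5 (31.05), CENPW (30.6) and CENPM (28.99), and neighbours in this order overlapped in their repeats. In HN30 NC the order began with SPAG5 (21.4), CENPW (18.6) and HJURP (17.97), which overlapped too. CENPP was lowest in HN30 NC (0.375) and CENPE in HN6 NC (0.367). The genes called lower in HN30 came from across this range, from HJURP and SPAG5 near the top to CENPI (2.27) and CENPE (2.22) near the foot.

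Related genes outside the 35 were counted in the same way. Of all genes tested, 1.91% were called lower in HN30 and 0.888% in HN6. The genes named below had an adjusted p from 0.446 to 0.522 in HN30 (edgeR). Of 7 genes of the spindle assembly checkpoint, 6 had a negative log2 fold change in HN30 and 2 were called lower, TTK (-1.19) and CDC20 (-1.08), and in HN6 2 were negative and none was called. Of 6 genes of the chromosomal passenger complex and the shugoshins, all 6 were negative in HN30 and AURKB (-1.05) was called. Of 10 further kinetochore and centromere genes, 10 were negative in HN30 and 2 were called, KIF18A (-1.40) and KIF2C (-1.29). Of 16 mitotic genes outside the kinetochore, all 16 were negative in HN30, with a median of -1.07, and 8 were called. In HN6 their median was -0.11 with none called, beside a median of 0.08 for the 35 genes.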

How the data were processed

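The authors sequenced poly(A) RNA of 12 libraries as paired-end reads, filtered out poly-N, duplicate and low-quality reads, aligned to hg38 and deposited raw whole-number counts per gene. The submitters' processing notes name HISAT2 and featureCounts; versions, annotation and strand setting are not given in the sources used here. Groups follow the labels. The study describes the repeats as biological. Nothing further says how separate the cultures were beyond the time of each repeat, so p-values measure the spread between these libraries.

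The counts were fitted with edgeR 4.0.16 in R 4.3.3 (TMM factors 0.897 to 1.06, filterByExpr at a count of 10 or more, quasi-likelihood F-test), adding the cell line as a covariate in fits over both lines, with Benjamini-Hochberg adjustment over all genes tested. log2 CPM used a prior count of 2. Alternatives were DESeq2 1.42.0 (size factors and Wald test), limma 3.58.1 (limma-voom, the study's method), no filter, no cell line term, a replicate block, each library left out and, chosen after seeing the data, a GC correction (lowess, span 0.3, 95.2% of genes with a value). Positions, exon overlaps and GC content are from GENCODE on GRCh38. Summaries and plots used Python 3.11.15, pandas 2.3.3 and matplotlib 3.10.9. Scripts were tested on simulated data.

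Repeats were made at separate times by the labels, which pairs equal numbers within a line. Deviations of same-numbered libraries correlated at 0.0778, 0.219 and 0.242 in HN6 and -0.0337, 0.405 and -0.0216 in HN30, across genes.

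The genes, lists and naming rule were chosen with earlier results of these data known. The rule named FAT1, SPC24, the gene of smallest P for KD against NC in each subcomplex, those past the thresholds there, and the 2 of smallest P in the comparisons of siRNAs, of lines after NC and in the interaction. Other genes appear by single values and were picked after their values were seen.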

Additional observations from a re-analysis of the deposited data

How the results depend on the processing

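For KD against NC over both lines, the count of kinetochore and centromere genes called lower was 3 and ran from 1 to 5 with 1 library left out, with 6 under the GC correction and replicate block together. In HN6 it was 0, and 1 with the GC correction. In HN30 it was 13, and ran from 4 to 23 with 1 library left out. For siFAT1-1 against NC it was 9, with 4 under limma-voom, 1 without a cell line term and 2 to 14 with 1 library left out. For siFAT1-2 it was 2, with 5 under limma-voom, 4 with the replicate block, 5 with the GC correction and block, 1 without a cell line term and 1 to 6 with 1 library left out. Between the siRNAs it was 6, with 2 under limma-voom, 3 each without a cell line term, with the GC correction, and with the GC correction and block, and 2 to 8 with 1 library left out. For the interaction it was 2, with 4 under the DESeq2 Wald test, 2 with the GC correction alone and 0 to 12 with 1 library left out. With the replicate block it was 0, and 0 also with the GC correction and block together. For the lines after NC the number called in either direction was 7 (3 lower and 4 higher in HN30), and 3 to 10 with 1 library left out; a replicate block could not be fitted there, since blocks are nested in lines. The block moved no other count by more than 1.5 times.

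Some log2 fold changes over both lines turned sign. SKA2 was at -0.0572 with the GC correction and -0.0464 with the block added. ZWILCH was at -0.0146 under limma-voom, -0.31 with the GC correction and -0.328 with the block added, and from -0.21 to 0.331 with 1 library left out. CENPC was at 0.0108 with DESeq2 size factors, 0.011 under the DESeq2 Wald test, 0.434 under limma-voom, 0.214 with the block and 0.043 with the GC correction and block, and from -0.453 to 0.487 with 1 library left out. NDC80 ran from -0.687 to 0.0648 with 1 library left out. The causes were not tested. With 2 repeats per condition, the spread between repeats limits these results more than depth does.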
